A study of Homo sapiens with 8 samples.

Results

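The genes described here are 10 NRF2-driven detoxification genes, AKR1B1, AKR1B10, AKR1C1, AKR1C2, AKR1C3, NQO1, GCLM, GCLC, GPX2 and TXNRD1. They were chosen by name, as the rows of each library's table that carry these gene names, and all 10 were found among 19158 genes. RNA was measured in A549, an established epithelial line from a human lung adenocarcinoma, with the genotype given as WT. There were 8 libraries from separate culture wells, 4 untreated and 4 exposed to 1 µM dexamethasone for 48 h, and both groups carried the replicate numbers 1, 3, 4 and 5 and the same batch label. Dexamethasone is a synthetic steroid that binds and activates the glucocorticoid receptor. The labels name no vehicle for the untreated wells and do not say whether the wells came from separate passages, so p-values measure the spread between these wells of 1 cell line. In such bulk samples a change in RNA per cell and a change in the number of cells holding it cannot be told apart.

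NRF2, the product of NFE2L2, is a transcription factor that binds antioxidant response elements together with small MAF proteins. KEAP1 is the adaptor that hands NRF2 to a CUL3 ubiquitin ligase for degradation, and oxidants or electrophiles interrupt this step. A549 cells are known for an inactivating KEAP1 mutation, and NRF2 target genes are therefore strongly expressed in them without any added stress. The 10 genes cover the main branches of the programme: aldo-keto reductases that reduce carbonyl groups and steroids, a quinone reductase, both subunits of the enzyme that starts glutathione synthesis, a glutathione peroxidase and a thioredoxin reductase.

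By the positions in the deposited files (GRCh38), the 3 AKR1C genes lie close together on chromosome 10: AKR1C1 (ENSG00000187134, chr10:4963253-4983283, plus strand), AKR1C2 (ENSG00000151632, chr10:4987400-5018031, minus strand) and AKR1C3 (ENSG00000196139, chr10:5035354-5107686, plus strand). The AKR1B genes lie close together on chromosome 7, AKR1B1 (ENSG00000085662, chr7:134442350-134459284, minus strand) and AKR1B10 (ENSG00000198074, chr7:134527592-134541408, plus strand). The others are NQO1 (ENSG00000181019, chr16:69706996-69726951, minus strand), GCLM (ENSG00000023909, chr1:93885205-93909456, minus strand), GCLC (ENSG00000001084, chr6:53497341-53616970, minus strand), GPX2 (ENSG00000176153, chr14:64939152-64942905, minus strand) and TXNRD1 (ENSG00000198431, chr12:104215779-104350305, plus strand). In GENCODE v44, GCLC and TXNRD1 overlap genes on their own strand, and these as well as AKR1C2, AKR1C3, NQO1 and GPX2 overlap genes on the opposite strand, so fragments there could belong to either gene.

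Stretches upstream of 5 start sites are shown because they carry the letters searched for, or show how alike the AKR1C genes are. They are from RefSeq (GRCh38.p14), 250 bases each, read 5′ to 3′ on the strand of the gene and ending at the base before the start. Capitals mark matches to TGACNNNGC, the core letters of an antioxidant response element, on either strand.
GPX2 (chr14:64942746-64942995, minus strand): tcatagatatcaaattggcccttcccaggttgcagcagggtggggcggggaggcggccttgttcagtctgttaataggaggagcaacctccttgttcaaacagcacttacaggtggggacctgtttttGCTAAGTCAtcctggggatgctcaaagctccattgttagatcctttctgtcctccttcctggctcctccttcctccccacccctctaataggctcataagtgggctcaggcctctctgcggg
GCLM (chr1:93909431-93909680, minus strand): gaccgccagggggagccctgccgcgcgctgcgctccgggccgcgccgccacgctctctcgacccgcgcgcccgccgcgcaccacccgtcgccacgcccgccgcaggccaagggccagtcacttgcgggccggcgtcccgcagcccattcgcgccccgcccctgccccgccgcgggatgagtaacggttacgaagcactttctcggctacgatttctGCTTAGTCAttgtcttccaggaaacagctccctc
TXNRD1, second listed start (chr12:104286782-104287031, plus strand): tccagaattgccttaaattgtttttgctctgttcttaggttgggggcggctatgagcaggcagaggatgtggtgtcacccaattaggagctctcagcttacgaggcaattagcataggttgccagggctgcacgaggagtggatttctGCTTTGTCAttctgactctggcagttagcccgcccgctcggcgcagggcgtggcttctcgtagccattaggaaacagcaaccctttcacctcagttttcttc
AKR1C1 (chr10:4963165-4963414, plus strand): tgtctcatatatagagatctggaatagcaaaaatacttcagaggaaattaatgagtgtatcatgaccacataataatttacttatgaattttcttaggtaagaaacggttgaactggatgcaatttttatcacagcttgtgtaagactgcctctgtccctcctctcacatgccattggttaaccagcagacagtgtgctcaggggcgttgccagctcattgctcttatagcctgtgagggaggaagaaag
AKR1C2 (chr10:5003858-5004107, minus strand): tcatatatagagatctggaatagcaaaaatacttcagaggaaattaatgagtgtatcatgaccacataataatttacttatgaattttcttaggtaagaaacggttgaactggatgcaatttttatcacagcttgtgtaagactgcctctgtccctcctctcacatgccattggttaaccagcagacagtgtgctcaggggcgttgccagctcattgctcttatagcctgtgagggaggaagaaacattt
Of the 10 genes, 9 had an entry in the promoter table, with 12 start sites in all, and AKR1B10 had none. In windows of 300 bases (250 before and 50 after the start), 3 of these 9 genes held the element letters on either strand: GPX2, GCLM and TXNRD1, the last at both of its listed starts. Counted by window, 4 of the 12 windows of these genes held them, and among all 35116 windows 13.3% did. The letters of a glucocorticoid response element, GNACA and TGTNC with any 3 bases between them (the same on both strands), were in 0 of the 9 genes' windows and in 0.39% of all windows. These are letter matches only. The upstream stretches of AKR1C1 and AKR1C2 were identical at 245 of 254 aligned columns (96.5%), while that of AKR1C1 and the first listed start of AKR1C3 were identical at 72.4%.

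Values are FPKM, fragments per kilobase of transcript scaled to the size of the library, and are printed per library as deposited. Tests were made with limma on log2(FPKM + 1) after scaling between libraries, and a gene is called where its Benjamini-Hochberg adjusted p over all 12153 genes tested was under 0.05. The low FPKM values corresponded to about 24720000 to 29060000 fragments per library, an estimate, and 10555 to 11378 genes per library reached 1 FPKM. The treatment labels held: FKBP5, TSC22D3 and PER1, which glucocorticoids induce, had log2 fold changes of 4.32, 3.86 and 1.93 (limma adjusted p = 1.21e-06, 4.06e-07 and 3.82e-05), with no overlap between groups. Of 5 epithelial markers, the keratin genes KRT8 and KRT18 averaged 919 to 1878 FPKM in both groups and were not called, while EPCAM was at 0.765 FPKM or less. CDH1, E-cadherin, rose from 6.80 ± 1.51 to 18.2 ± 1.45 FPKM, and KRT19, another keratin, fell from 156 ± 30.6 to 54.7 ± 8.28 FPKM (SD, n = 4 each, limma adjusted p = 8.86e-05 and 0.00119). Of markers of other cells, COL1A2, PTPRC, CD3E and MS4A1 were listed at 0 in all 8 libraries. The fibroblast markers summed to 1.81 to 2.29 FPKM in untreated and 0.598 to 0.779 FPKM in dexamethasone libraries, and the leukocyte markers to 5.78 to 7.52 and 3.07 to 3.75 FPKM. Most of the fibroblast sum was COL1A1, which averaged 2.03 and 0.367 FPKM, while DCN went from 0 to between 0.178 and 0.355 FPKM. The leukocyte sum was CD14 and CD68 alone, both called lower. The endothelial markers summed to 0.182 FPKM or less. Untreated replicate 5 and dexamethasone replicate 5 stood apart from their groups, with scaling divisors of 0.831 and 0.931 where the other libraries had 1.02 to 1.07, so the scaling raises every gene in them.

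Taken as a sum, the 10 genes were highly expressed before treatment and remained so after it. Their summed share of all FPKM was 1.77% ± 0.0292 without and 1.76% ± 0.0486 with dexamethasone (SD, n = 4 each), while their composition differed between the groups. The AKR1B and AKR1C genes made up most of it. On average the AKR1B sum went from 3387 to 2288 FPKM and the AKR1C sum from 1981 to 2846 FPKM. GCLC and GCLM were far lower, at 15.6 to 63.0 FPKM in untreated libraries. Of the 10 genes, all 10 passed the filter on low values and 3 were called, AKR1C2 higher and GPX2 and AKR1B1 lower, where 27.0% of all tested genes were called (12.2% higher, 14.8% lower). A share of 3 in 10 lies near that background. As deposited, 7 of the 10 had no overlap between the 4 untreated and 4 dexamethasone values, 3 with dexamethasone above and 4 with dexamethasone below, against 31.6% of all tested genes (12.4% above, 19.2% below). After scaling 6 of the 10 did not overlap, again against 31.6%. The median log2 fold change was -0.19 over the 10 genes and 0.00 over all genes tested.

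**Figure D1:**
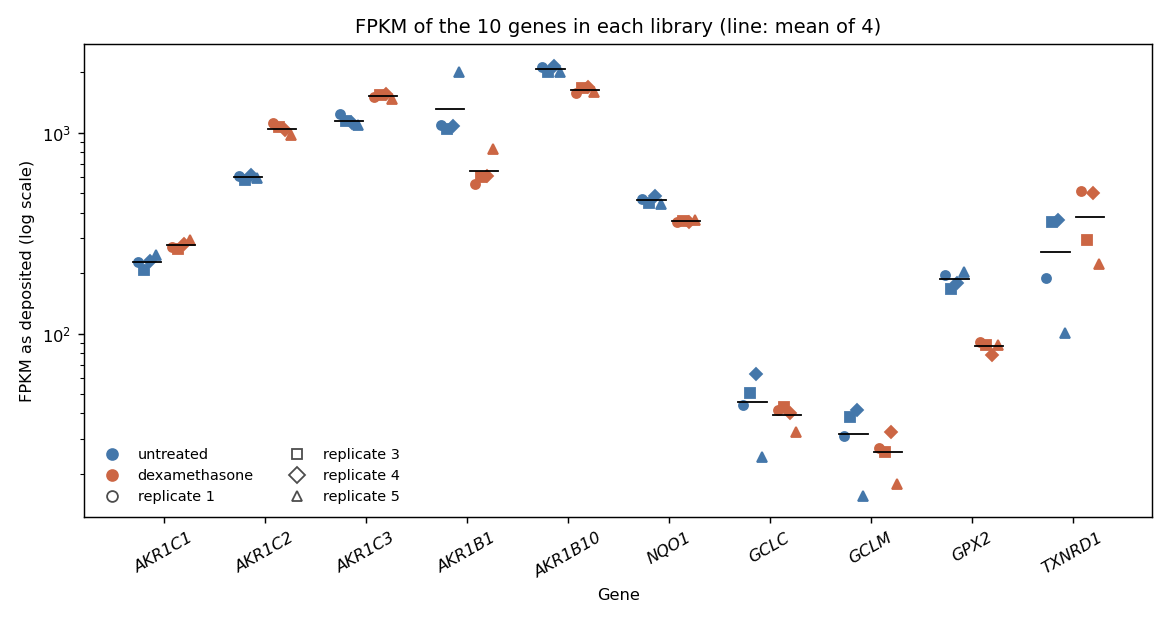
FPKM as deposited (vertical axis, log scale) of each of the 10 genes in the 4 untreated (blue) and 4 dexamethasone libraries (orange), with marker shapes for the replicate numbers and lines at the mean of 4. The groups separate for the 3 AKR1C genes, AKR1B1, AKR1B10, NQO1 and GPX2, and they overlap for GCLC, GCLM and TXNRD1, where replicate 5 is the lowest library in each group.

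The AKR1C genes encode cytosolic hydroxysteroid dehydrogenases, which reduce ketosteroids, prostaglandins and lipid aldehydes with NADPH. AKR1C2, which reduces dihydrotestosterone, stood at 609, 582, 618.5 and 596 FPKM (untreated replicates 1, 3, 4, 5) against 1117, 1068, 1039 and 980.2 FPKM (dexamethasone replicates 1, 3, 4, 5). Every treated library lay above every untreated one. AKR1C2 rose 1.73-fold, or by 0.79 on the log2 scale (SE 0.149; limma, adjusted p = 0.00363), and it was called under each of the 18 alternative settings tried, with adjusted p of 8.53e-05 to 0.0202. None of these settings changes how fragments that also match AKR1C1, described below, were assigned.

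AKR1C3, which makes testosterone from androstenedione and prostaglandin F from prostaglandins, was at 1248, 1146, 1116 and 1096 FPKM in the same order in untreated cells and at 1516, 1536, 1554 and 1467 FPKM after dexamethasone. Its groups did not overlap, but the log2 fold change of 0.39 (95% interval 0.05 to 0.73) was not called (limma adjusted p = 0.0898). AKR1C1, which inactivates progesterone, was at 227, 209, 231 and 246 FPKM in untreated and at 271, 263, 279 and 291 FPKM in dexamethasone libraries. All 4 treated values were above the untreated ones as deposited, and untreated replicate 5 entered the treated range once libraries were scaled. The log2 fold change of AKR1C1 was 0.26 (95% interval -0.11 to 0.63, limma adjusted p = 0.262). Without both libraries numbered 5, AKR1C1 and AKR1C3 were called, at 0.33 and 0.44 (limma adjusted p = 0.0104 and 0.00466, where 45.1% of all genes were called). With each library's trend on GC content removed they were at 0.07 and 0.25 and were not called (limma adjusted p = 0.844 and 0.275).

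The AKR1C sum over the 3 genes is given because fragments can match several of them, AKR1C1 and AKR1C2 above all. It adds FPKM, each divided by the length of its own gene, so it still depends in part on how shared fragments were split. Of all windows of 50 bases in the canonical AKR1C2 transcript, 45.7% occur letter for letter in a transcript of AKR1C1, and of windows of 150 bases, the length of a read, 16.5% do. For AKR1C3, 18.6% of windows of 50 bases and 2.12% of windows of 150 bases occur in another gene of AKR1C1, AKR1C2 and AKR1C4. The sum was 2084, 1937, 1965 and 1938 FPKM (untreated replicates 1, 3, 4, 5) against 2905, 2868, 2873 and 2739 FPKM (dexamethasone replicates 1, 3, 4, 5), with no overlap. Put in place of its 3 rows in the fit over all genes, the sum rose 1.42-fold, or by 0.51 on the log2 scale (SE 0.162; limma, adjusted p = 0.0427). An exact permutation test over libraries gave p = 0.0286 (two-sided), the smallest that 4 against 4 can give. The call was lost with the GC trend removed, at 0.35 (limma adjusted p = 0.163), and without any 1 library other than untreated replicate 5, at 0.47 to 0.53 (limma adjusted p = 0.0695 to 0.121).

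Within the AKR1C sum the shares shifted toward AKR1C2. It made up 30.4% ± 0.954 of the sum in untreated and 36.9% ± 1.198 in dexamethasone libraries (SD, n = 4 each). AKR1C3 went from 58.1% ± 1.68 to 53.4% ± 0.809 and AKR1C1 from 11.5% ± 0.899 to 9.71% ± 0.65 (SD, n = 4 each). The shift between AKR1C1 and AKR1C2, whose transcripts share the most windows, was not tested. The ratio of AKR1C3 to AKR1C1 plus AKR1C2, which joins the 2 genes that are most alike and into which no scaling between libraries enters, was 1.30 to 1.49 in untreated and 1.09 to 1.18 in dexamethasone libraries. The difference in its log2 was -0.28 (exact permutation p = 0.0286, two-sided, 0.0571 when adjusted over 4 ratios), and no treated library overlapped the untreated ones. It did not pass after adjustment. Too few of the 4 ratios reached the smallest possible p for any adjusted p to go under 0.05, so the adjustment cannot decide here. The transcript lengths behind the FPKM are not given in the sources used here, and the canonical transcripts of AKR1C1, AKR1C2 and AKR1C3 have 6543, 3215 and 1186 bases, so the order of levels among these 3 genes rests on the length used for each.

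The AKR1B genes lay the other way. AKR1B1 encodes aldose reductase, which turns glucose into sorbitol, and AKR1B10 a related reductase of retinal and lipid aldehydes. AKR1B1 was at 1095, 1049, 1085 and 2002 FPKM (untreated replicates 1, 3, 4, 5) against 559, 599.8, 607 and 829 FPKM (dexamethasone replicates 1, 3, 4, 5). Replicate 5 was far above the rest of the untreated group and also the highest of the treated group, and the groups still did not overlap. AKR1B1 fell by 0.98 on the log2 scale (SE 0.309, limma adjusted p = 0.0416), to 0.506 of its untreated level. Without untreated replicate 5 the log2 fold change was -0.65 (limma adjusted p = 0.0258), and without both libraries numbered 5 it was -0.82 (limma adjusted p = 0.000159). The call was lost in 6 of 18 alternatives: with no filter on low values (limma adjusted p = 0.0632), and without untreated replicate 1 or 4 or dexamethasone replicate 1, 3 or 4 (limma adjusted p = 0.0567 to 0.13).

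AKR1B10 was the most abundant of the 10 genes in both groups, at 2139.9, 2010.3, 2166 and 1999.85 FPKM in untreated and at 1574, 1681, 1699 and 1602 FPKM in dexamethasone libraries. All treated values lay below all untreated ones. The log2 fold change of -0.36 (95% interval -0.71 to -0.00) was not called (limma adjusted p = 0.123), and it was called with unscaled FPKM, at -0.34 (limma adjusted p = 0.025, where 27.0% of all genes were called), and without both libraries numbered 5, at -0.30 (limma adjusted p = 0.0207). The log2 ratio of AKR1B10 to AKR1B1 was 0.97, 0.94, 1.00 and -0.0019 without and 1.49, 1.49, 1.49 and 0.95 with dexamethasone (replicates 1, 3, 4, 5). In both groups replicate 5 had the lowest ratio, and its treated value fell into the untreated range. The log2 difference was 0.63 (exact permutation p = 0.0857, two-sided, adjusted over 4 ratios p = 0.114).

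In untreated cells AKR1B10, AKR1B1 and AKR1C3 led in that order of means, with AKR1C2 below all 3. AKR1B1 lay above AKR1C3 in 1 of the 4 untreated libraries, replicate 5, so their order of means rests on that library, which also gives the overlap of AKR1B1 with AKR1B10. After dexamethasone the order was AKR1B10, AKR1C3, AKR1C2 and AKR1B1, with no overlap between neighbours. Among all 19158 genes AKR1B1 ranked 9th to 29th in untreated and 47th to 77th in dexamethasone libraries, and AKR1C2 ranked 78th to 109th and 27th to 37th. At the lower end NQO1, AKR1C1 and GPX2 kept that order in both groups and did not overlap each other, TXNRD1 overlapped AKR1C1 and GPX2 in untreated and NQO1 and AKR1C1 in treated cells, and GCLC lay above GCLM in all 8 libraries.

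**Figure D2:**
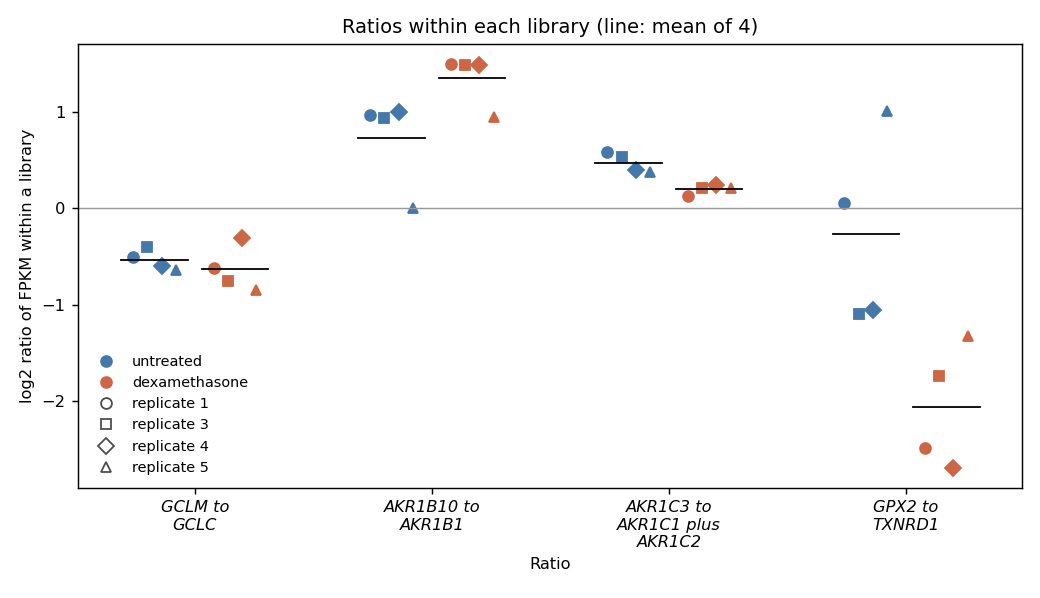
Ratios of FPKM between genes within the same library (vertical axis, log2), for 4 untreated (blue) and 4 dexamethasone libraries (orange), with lines at the mean of 4. The ratio of AKR1C3 to AKR1C1 plus AKR1C2 and that of GPX2 to TXNRD1 lie lower in all treated libraries, while the ratio of GCLM to GCLC overlaps and that of AKR1B10 to AKR1B1 overlaps through replicate 5.

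NQO1 encodes a quinone reductase that avoids radical intermediates and is the standard reporter of NRF2 activity. It was at 466, 448, 485 and 444 FPKM in untreated and at 359, 363.5, 359 and 369.8 FPKM in dexamethasone libraries. The treated values lay close together and all below the untreated ones. The log2 fold change was -0.36 (95% interval -0.67 to -0.04), not called (limma adjusted p = 0.0909). NQO1 was called with unscaled FPKM, at -0.34 (limma adjusted p = 0.0161), with the GC trend removed, at -0.42 (limma adjusted p = 0.0311, where 37.3% of all genes were called), and without both libraries numbered 5, at -0.32 (limma adjusted p = 0.0088).

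GCLC and GCLM encode the catalytic and the modifier subunit of glutamate-cysteine ligase, the first and rate-limiting enzyme of glutathione synthesis. GCLC was at 44.2, 50.7, 63.0 and 24.2 FPKM (untreated replicates 1, 3, 4, 5) against 41.7, 43.2, 40.1 and 32.3 FPKM (dexamethasone replicates 1, 3, 4, 5). GCLM was at 31.0, 38.3, 41.6 and 15.6 FPKM and at 27.0, 25.6, 32.4 and 17.9 FPKM in the same order. For both genes replicate 5 was the lowest library of each group, and the groups overlapped. The log2 fold changes were -0.15 for GCLC (95% interval -0.59 to 0.30, limma adjusted p = 0.601) and -0.24 for GCLM (95% interval -0.77 to 0.29, limma adjusted p = 0.468). The direction of GCLC turned without untreated replicate 4, at 0.00. GCLM was called lower with the GC trend removed, at -0.53 (limma adjusted p = 0.00343). The ratio of the subunits, GCLM to GCLC, was 0.642 to 0.756 in untreated and 0.554 to 0.809 in dexamethasone libraries, a log2 difference of -0.10 (exact permutation p = 0.457, two-sided, 0.457 when adjusted over 4 ratios).

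GPX2 and TXNRD1 both encode selenoproteins, which carry selenocysteine at the active site. GPX2, a glutathione peroxidase typical of gut epithelium, was at 196, 167, 178 and 203 FPKM (untreated replicates 1, 3, 4, 5) against 91.1, 88.1, 78.1 and 88.1 FPKM (dexamethasone replicates 1, 3, 4, 5). The lowest untreated library was far above the highest treated one. GPX2 fell to 0.463 of its untreated level, a change of -1.11 on the log2 scale (SE 0.166; limma, adjusted p = 0.000999), and it was called under all 18 alternatives, at -1.19 to -0.96. It is the member with the largest change. Its stretch upstream of the start, printed above, holds the antioxidant response element letters, as do those of GCLM and TXNRD1, which were not called. The windows of AKR1C2 and AKR1B1, the other called members, do not hold them, and a link between letters and change was not tested. GPX2 overlaps CHURC1 on the opposite strand in GENCODE v44, and whether counting used the strand is not stated.

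TXNRD1, the cytosolic reductase that keeps thioredoxin active, was the most variable member. It was at 189, 359, 370.0 and 101 FPKM in untreated and at 511, 294, 504 and 222 FPKM in dexamethasone libraries. The groups overlapped widely, with replicate 5 lowest in each. The log2 fold change was 0.66 (95% interval -0.18 to 1.51, limma adjusted p = 0.217), and TXNRD1 was called in none of the 18 alternatives, where its log2 fold change was 0.39 to 0.88. The ratio of GPX2 to TXNRD1 was 0.466 to 2.02 in untreated and 0.155 to 0.398 in dexamethasone libraries without overlap (exact permutation p = 0.0286, two-sided, adjusted over 4 ratios p = 0.0571). As for the AKR1C3 ratio, this adjusted p could not go under 0.05 with so few of the 4 ratios at the smallest p.

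**Figure D3:**
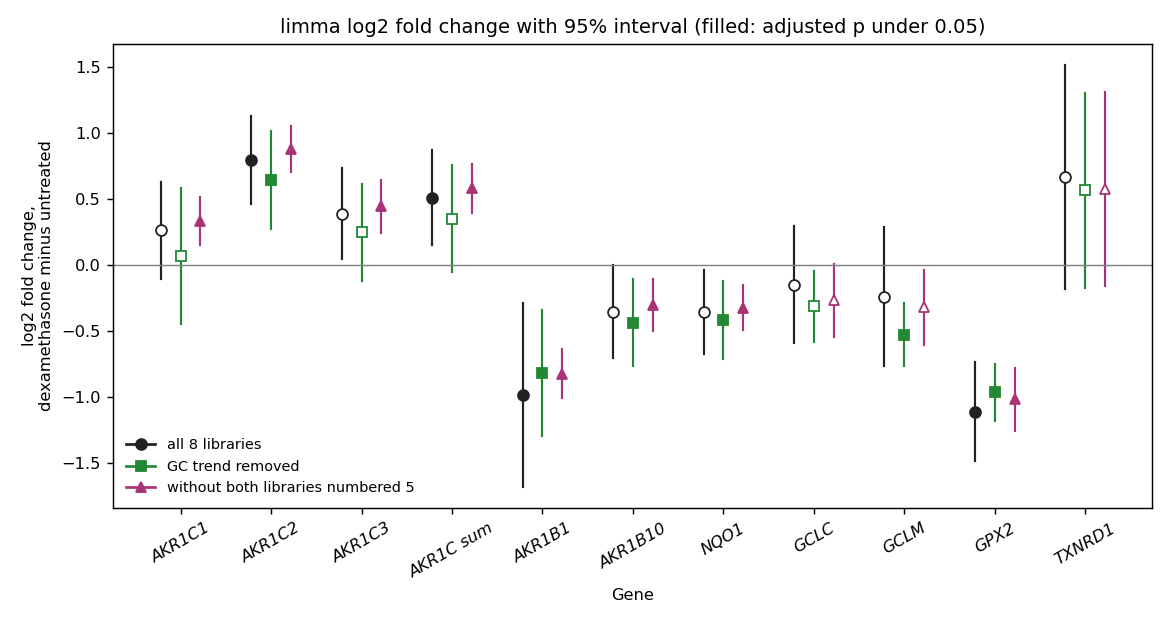
limma log2 fold change (vertical axis, dexamethasone minus untreated) with its 95% interval for the 10 genes and the AKR1C sum, from all 8 libraries (black circles), with each library's trend on GC content removed (green squares) and without both libraries numbered 5 (purple triangles). Filled symbols are called: AKR1C2, AKR1B1 and GPX2 are filled in all 3 fits, and the 3 AKR1C genes lie lowest with the GC trend removed.

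GC content is given because log2 fold changes of some members moved with it. Over their annotated transcripts the 10 genes had a GC content of 40.4% to 55.0%. AKR1B1 and GPX2 had the highest, 55.0% and 53.7%, and were the 2 called lower. With the GC trend removed their log2 fold changes were -0.82 and -0.96 and both were called.

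The regulators of NRF2 were examined next. Of 12 genes all were tested, 2 rose and 4 fell, where 12.2% of all tested genes rose and 14.8% fell, with a median log2 fold change of -0.17. NFE2L2 itself was at 16.1, 20.5, 21.8 and 8.33 FPKM in untreated and at 8.94, 20.6, 24.4 and 16.3 FPKM in dexamethasone libraries. The groups overlapped (log2 fold change 0.06, 95% interval -0.64 to 0.75, limma adjusted p = 0.906), and the direction turned in 6 of 18 alternatives. KEAP1 was at 44.7, 45.3, 46.2 and 53.7 FPKM in untreated and at 24.7, 33.1, 32.7 and 39.5 FPKM in dexamethasone libraries. Its groups did not overlap as deposited and overlapped after scaling, and it was not called (log2 fold change -0.56, limma adjusted p = 0.0666). KEAP1 was called lower in 6 of 18 alternatives, and its log2 fold change was -0.70 to -0.32 over them all.

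Among the partners and relatives of NRF2, MAFK, a small MAF protein that pairs with NRF2 or BACH1 on DNA, fell from 24.4 ± 2.26 to 9.34 ± 0.856 FPKM (SD, n = 4 each, log2 fold change -1.31, limma adjusted p = 0.000284). NFE2L1, a related factor best known for proteasome genes, rose from 43.0 ± 4.14 to 96.1 ± 6.17 FPKM (SD, n = 4 each, log2 fold change 1.13, limma adjusted p = 0.000145). SQSTM1, the autophagy receptor that sequesters KEAP1 and is itself an NRF2 target, fell from 798 ± 118 to 391 ± 57.9 FPKM (SD, n = 4 each, log2 fold change -1.04, limma adjusted p = 0.00735). BACH1, a repressor that competes with NRF2 for small MAF proteins, rose from 3.57 ± 1.07 to 6.88 ± 1.55 FPKM (SD, n = 4 each, log2 fold change 0.78, limma adjusted p = 0.0079). Each of these 4 genes was called under all 18 alternatives.

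Across 8 lists of further genes of the pathway, which hold 105 different genes, 96 passed the filter on low values. Of these 14 rose, 16 fell and 66 were not called, with a median log2 fold change of -0.02. These 30 calls among 96 genes lie near the 27.0% called among all tested genes, and the counts of the single lists are to be read against the same share. Other carbonyl and quinone enzymes had 1 higher and 3 lower of 10 tested (median -0.37). ALDH1A1, a retinal dehydrogenase, rose from 1632 ± 350 to 3239 ± 77.4 FPKM (SD, n = 4 each, log2 fold change 1.00, limma adjusted p = 0.00164). CBR3, a carbonyl reductase, fell by 1.01 on the log2 scale (limma adjusted p = 0.000495), and ALDH3A1, an aldehyde dehydrogenase, fell by 0.82 (limma adjusted p = 0.0126), a call lost without dexamethasone replicate 1, 3 or 4 (limma adjusted p = 0.0534 to 0.058). AKR1B15, the closest relative of AKR1B10, was at 15.8 ± 1.00 and 10.8 ± 3.01 FPKM (SD, n = 4 each) and was called lower (log2 fold change -0.56, limma adjusted p = 0.0451), a call lost in 10 of 18 alternatives. Of the windows of 50 bases in AKR1B15, 11.2% occur in AKR1B10, and of those of 150 bases none do.

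The glutathione system had 4 higher and 2 lower of 22 tested (median 0.01). MGST1, a microsomal glutathione transferase, rose from 154 ± 48.2 to 467 ± 33.9 FPKM (SD, n = 4 each, log2 fold change 1.64, limma adjusted p = 0.000207), the largest rise in the 8 lists. GLRX, glutaredoxin, rose by 1.321 (limma adjusted p = 8e-05), while GSTP1, with the highest untreated mean of the list, was at 448 ± 70.02 and 363 ± 56.4 FPKM (SD, n = 4 each, limma adjusted p = 0.324). The thioredoxin system had 1 higher and 2 lower of 12 tested (median 0.11). PRDX6, a peroxiredoxin that uses glutathione, rose by 0.95 (limma adjusted p = 0.0011). SRXN1, which repairs overoxidised peroxiredoxins, fell by 0.45 and PRDX1, a peroxiredoxin with the highest untreated mean of the list, fell by 0.46 (limma adjusted p = 0.0168 and 0.0486). These calls were lost in 5 and 7 of 18 alternatives, all of which left out 1 library.

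NADPH, the electron source of all these reductases, comes in part from the enzymes of the pentose phosphate pathway. In the list of NADPH supply 1 of 7 tested genes was called, IDH1, a cytosolic isocitrate dehydrogenase, which rose by 0.95 (limma adjusted p = 0.00349). TKT, a transketolase of that pathway, was at 731 ± 114 and 475 ± 90.8 FPKM (SD, n = 4 each, limma adjusted p = 0.0784). Conjugation and export had 3 higher and 0 lower of 9 tested (median 0.49). CES1, a carboxylesterase, rose by 1.11 and ABCC3, an exporter of conjugates, by 0.82 (limma adjusted p = 0.000838 and 0.00192). EPHX1, an epoxide hydrolase with the highest untreated mean of the list, was at 150 ± 15.9 and 180 ± 15.9 FPKM (SD, n = 4 each, limma adjusted p = 0.35).

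Genes of heme and iron handling and other NRF2 targets had 2 higher and 5 lower of 13 tested (median -0.45). NR0B1, an NRF2-dependent nuclear receptor in lung cancer cells, went from 17.7 to 19.1 FPKM without the steroid to between 6.04 and 7.39 FPKM with it, and fell by 1.31 (limma adjusted p = 9.37e-05). OSGIN1, an oxidative stress-induced gene, fell by 1.08 (limma adjusted p = 0.00143). FTL, the ferritin light chain and the gene with the highest mean of all 8 lists, fell from 8073 ± 1517 to 3969 ± 242 FPKM (SD, n = 4 each, log2 fold change -1.02, limma adjusted p = 0.0112), and lost its call without dexamethasone replicate 4 (limma adjusted p = 0.052). FTH1, the ferritin heavy chain, lay the other way without overlap, at 1762 ± 124 and 2546 ± 233 FPKM (SD, n = 4 each). It was not called (log2 fold change 0.52, limma adjusted p = 0.0596). HMOX1, heme oxygenase, fell from 112 ± 14.8 to 61.3 ± 10.9 FPKM (SD, n = 4 each, log2 fold change -0.88, limma adjusted p = 0.0134). Its call was lost in 2 of 18 alternatives, without dexamethasone replicate 1 or 4 (limma adjusted p = 0.0553 and 0.0535).

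Of 17 other selenoprotein genes tested, 0 were called by limma and 2 had an unadjusted p under 0.05 (median 0.10). These were SELENOS and MSRB1 (limma adjusted p = 0.0981 and 0.0944). GPX4, the peroxidase of membrane lipids and the one with the highest untreated mean, averaged 80.0 ± 21.2 FPKM without and 97.3 ± 9.99 FPKM with dexamethasone (SD, n = 4 each, limma adjusted p = 0.398). SELENOS and MSRB1 were each called higher in 6 and GPX4 in 4 of the 18 alternatives.

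**Figure D4:**
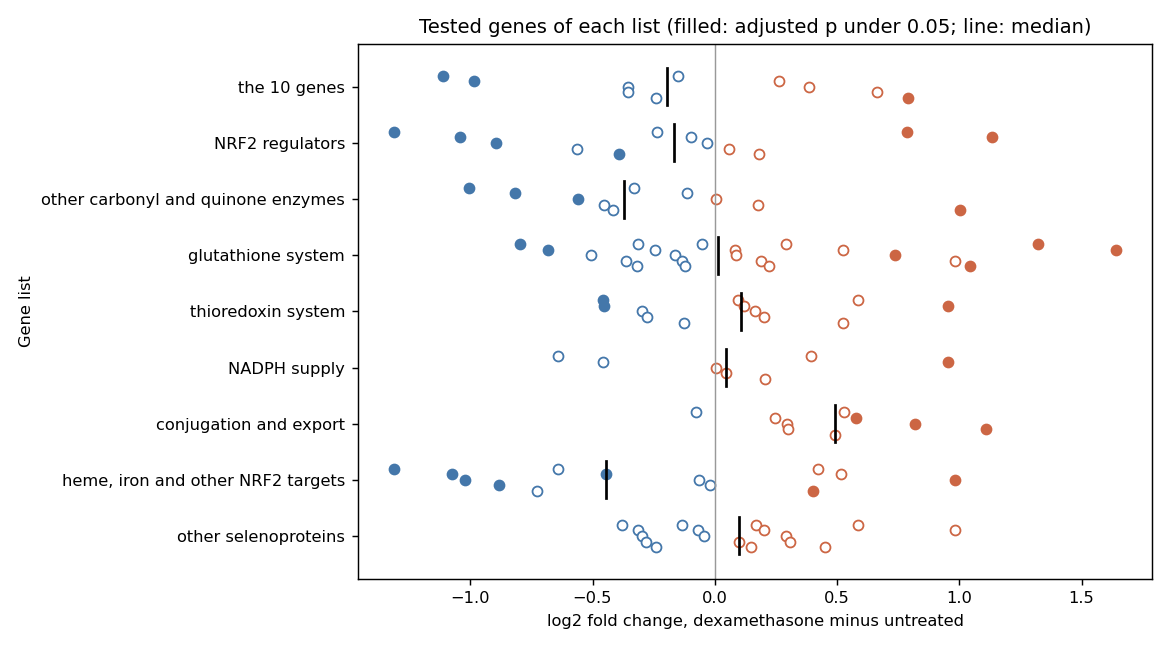
limma log2 fold change (horizontal axis, dexamethasone minus untreated) of every tested gene of the 10 and of the 8 further lists (rows), with called genes filled, higher in orange and lower in blue, and a line at the median of each list. Both directions occur in most lists: 14 genes are called higher and 16 lower over the 8 lists, and the selenoprotein list has 0 called genes.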

How the data were processed

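Libraries were made from RNA after removal of ribosomal RNA and read from both ends, per the labels' protocols. The submitters' processing notes name FastQC 0.11.9, cutadapt 3.4, STAR 2.7.9a, featureCounts (Subread 2.0.3), DESeq2 1.32.0 and GRCh38. The annotation release, the use of strand and the step that made the values are not given in the sources used here. The deposited values are described as counts but are not whole numbers and sum to 338989 to 373855 per library, so they were read as FPKM, an inference from the values. About 44.1% to 47.9% of low values lay within 0.1 of a whole fragment count under the estimated depths, so no count test was run.

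FPKM were divided by a trimmed mean of M values (0.3 of M and 0.05 of A trimmed) and tested as log2(FPKM + 1) with limma 3.58.1 in R 4.3.3 (trend and robust, group as the only term, two-sided), for genes of at least 0.5 FPKM in at least 4 libraries (3 where a library was left out). Fold changes on this scale are understated for low genes. Simulated data with known changes were used to check the fit. Ratios and the AKR1C sum used two-sided exact permutation tests over libraries. GENCODE v44, which holds 19065 of the 19158 gene identifiers, supplied strand, overlaps, transcripts and GC content. Named in the text are the 10 genes, FKBP5, TSC22D3, PER1, NFE2L2, KEAP1 and, of each list, the 2 tested genes with the smallest p and the gene with the highest untreated mean, except 1 gene that is not reported here. BACH1, ALDH3A1, AKR1B15 and HMOX1 were added after their values were seen, as were the fits of these 4 under the alternatives. FTH1 was also named after its values were seen. The members and lists were chosen with earlier results of these data known.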

Additional observations from a re-analysis of the deposited data

Results flagged for a closer look

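In 30 groups of 4 values (10 genes, the AKR1C sum and 4 ratios, in each treatment), 3 values lay so far from the other 3 that the gap took most of the group's range, where chance gives about 1 in 20, or 1.5. All 3 came from libraries numbered 5 and concern AKR1B1. The 30 groups share values, and 2 of the 3 rest on the same reading of AKR1B1 in untreated replicate 5. The count of 3 is therefore not a count of separate events to set against 1.5. AKR1B1 in untreated replicate 5 was at 2002 FPKM, and the other untreated libraries were at 1049 to 1095. The log2 ratio of AKR1B10 to AKR1B1 was -0.0019 in untreated replicate 5, against 0.94 to 1.00 in the other untreated libraries, and 0.95 in dexamethasone replicate 5, against 1.49 in the other dexamethasone libraries. AKR1B10 itself did not stand apart in these libraries.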

How the results depend on the processing

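Each result was recomputed under 18 alternatives (ratios 11), 1 choice at a time except for the replicate block joined with the removal of the GC trend. All 3 calls held with a pseudocount of 0.1 and with a filter of 1 FPKM. Of the 10 genes, 6 instead of 3 were called with no scaling, without limma's trend and robust options, and with the GC trend removed. These settings called 3281 of 12161, 3365 of 12153 and 4527 of 12122 tested genes. Without both libraries numbered 5, 7 of the 10 were called, where 45.1% of 12233 tested genes were. Leaving out 1 library gave 2 to 5, the 5 without untreated replicate 5. Over all genes, 3279 calls became 5512 without both libraries numbered 5, and 2284 to 3825 without 1 library. The 8 lists went from 30 to 46 with the GC trend removed, to 50 without both libraries numbered 5, and to 19 to 36 without 1 library, the 19 without dexamethasone replicate 4. The cause was not tested. The AKR1C sum was 0.35 with the GC trend removed and 0.47 to 0.61 without 1 library. Unscaled FPKM gave 1262 (all genes, called higher) and 2019 (all genes, called lower), against 1479 and 1800.

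By the labels, same-numbered libraries share only a number. The correlations of their deviations from the group means were 0.29, 0.07, 0.31 and 0.71 for numbers 1, 3, 4 and 5, and only libraries numbered 5 correlated best with each other. The mitochondrial share of FPKM ran in the same order of numbers in both groups. It was 6.04%, 3.45%, 3.71% and 1.74% in untreated and 9.44%, 5.91%, 6.30% and 2.55% in dexamethasone libraries (replicates 1, 3, 4, 5). What same-numbered libraries share was not tested. With a replicate block 5769 of all genes, 6 of the 10 (AKR1B10, AKR1C3 and NQO1 added) and 51 of the lists were called, and with the block and the GC trend removed 5314, 6 and 51.

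GCLC turned to 0.0030 without untreated replicate 4. NFE2L2 turned to -0.19 with the GC trend removed, with and without the block, to -0.16 without both libraries numbered 5, and ranged from -0.13 to 0.36 without 1 library, turning at -0.03, -0.10 and -0.13 without dexamethasone replicate 3, dexamethasone replicate 4 and untreated replicate 5. Without 1 library the log2 difference was 0.39 to 0.76 for the ratio of AKR1B10 to AKR1B1, -0.31 to -0.24 for the ratio of AKR1C3 to AKR1C1 plus AKR1C2 and -2.07 to -1.36 for the ratio of GPX2 to TXNRD1. These 3 passed without dexamethasone replicate 5, at 0.76, -0.28 and -2.03 (exact permutation, adjusted p = 0.0381). With all 8 libraries the AKR1C3 and GPX2 ratios already had the smallest p that 4 against 4 can give. Whether the AKR1C3 and GPX2 ratios pass is therefore set by how many of the 4 ratios reach the smallest p, not by a change in their own values. The ratio of AKR1B10 to AKR1B1 was not at the smallest p with all 8 libraries (exact permutation p = 0.0857). The lowest value of the 10 genes was 15.6 FPKM. Depth is known only as an estimate, and its part in these results was not tested.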
